A study of Mus musculus with 7 samples.

Results

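The genomic spans that hold Tet1, Tet2 and Tet3 were examined for 5-hydroxymethylcytosine (5hmC), the oxidised form of 5-methylcytosine that the enzymes of these genes make. A span was the set of 500 bp bins whose start lay within chr3:133126000-133209000 for Tet2, chr10:62267000-62345000 for Tet1 and chr6:83312000-83410000 for Tet3 on the mouse build mm9. This gave 166 bins (83 kb) for Tet2, 156 bins (78 kb) for Tet1 and 196 bins (98 kb) for Tet3, in all 518 of the 5451548 bins of the genome. The 50 kb on each side of a span, 200 bins per locus, served as its flanks. The rule that set the spans used positions only and no read counts. No mm9 annotation was used here, so exons, introns and untranslated regions are not assigned to bins.

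The libraries were made from hippocampal genomic DNA of C57BL/6 mice that had not been stressed, enriched for 5hmC with an antibody and read on an Illumina sequencer. There were 3 libraries from wild-type mice (WT) and 4 from mice with the genotype Tet2 CKO, which the sample titles call a knockout of TET2. Strain, tissue and the unstressed condition were shared by both groups. The Cre driver, the floxed exons, sex, age and any pooling of animals are not given in the sources used here, so it is not known in which hippocampal cells the Tet2 gene was meant to be cut or where along the gene. The labels do not say that replicates came from separate animals, so the p-values reflect library-to-library spread alone, and that spread may be technical. The libraries hold captured DNA and no RNA, so neither the tissue nor the level of Tet2 transcript can be checked in them.

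TET enzymes are dioxygenases that use iron and 2-oxoglutarate to oxidise 5-methylcytosine to 5hmC and then to further oxidised bases, which can lead to loss of the methyl mark. Neurons carry much 5hmC, and in brain it lies mostly over gene bodies and at enhancers, with little of it at CpG-rich gene starts. TET1 and TET3 can carry a CXXC domain that binds CpG-containing DNA, whereas TET2 lacks that domain. A separate CXXC protein that can bind TET2, IDAX, is encoded by a neighbouring gene. Here the 3 genes were read as targets of the mark rather than as its source. The Tet2 span was also searched for DNA missing from the Tet2 CKO libraries.

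All 3 genes lie on the minus strand in the RefSeq tables of GRCm38.p6, where all 3 were matched by symbol, so each gene runs from the upper toward the lower edge of its span. The 250 bases before the tabulated start of each gene are shown because they differ in the density of CpG, the site at which most 5hmC forms. Capitals mark every CG, which reads the same on both strands. Sequences are from RefSeq, run 5′ to 3′ on the strand of the gene, and were not placed on mm9 bins.
Tet1: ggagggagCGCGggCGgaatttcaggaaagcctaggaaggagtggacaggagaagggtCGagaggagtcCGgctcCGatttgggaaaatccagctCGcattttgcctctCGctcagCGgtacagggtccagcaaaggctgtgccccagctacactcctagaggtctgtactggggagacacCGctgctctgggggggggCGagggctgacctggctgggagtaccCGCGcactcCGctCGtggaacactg
Tet2: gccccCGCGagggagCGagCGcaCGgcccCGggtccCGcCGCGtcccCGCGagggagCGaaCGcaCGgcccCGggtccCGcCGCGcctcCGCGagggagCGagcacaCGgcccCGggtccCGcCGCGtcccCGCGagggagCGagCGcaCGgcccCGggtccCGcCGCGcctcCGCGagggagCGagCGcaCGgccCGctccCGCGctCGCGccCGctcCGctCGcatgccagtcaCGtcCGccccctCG
Tet3: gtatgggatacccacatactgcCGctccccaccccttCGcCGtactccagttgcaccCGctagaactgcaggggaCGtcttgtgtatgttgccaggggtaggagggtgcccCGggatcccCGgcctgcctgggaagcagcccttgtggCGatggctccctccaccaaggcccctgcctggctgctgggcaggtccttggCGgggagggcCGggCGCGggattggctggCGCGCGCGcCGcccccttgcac

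The Tet2 promoter holds 51 CG, a number that 0.067% of the 32851 tabulated mouse promoters of the same length reach. The Tet1 promoter holds 15 CG and the Tet3 promoter 17, numbers reached by 27.3% and 23.5% of promoters. The median promoter holds 6 CG. The tabulated start of Tet3 lies inside the gene as RefSeq draws it, and these letters describe the reference, not the mice.

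Libraries held 26134505 to 49414761 reads. A few bins took a large part of every library: 375 bins had a mean above 100 reads over the 7 libraries, and none of them lay in a span. Density is therefore given as relative density, the reads per bin divided by the mean over autosomal bins outside these 375 in the same library, so that 1 is the autosomal mean. Autosomal bins outside them held 68.8% of the reads of WT replicate 1 and 44.3% to 48.8% of those of the other 2 WT libraries and of Tet2 CKO replicates 1 and 4. In Tet2 CKO replicates 2 and 3 they held 28.4% and 24.4%. These 2 libraries also had the fewest autosomal bins with a read, 37.0% and 40.0%, against 52.5% to 68.0% in the other 5. They stand apart from the rest at Tet1 and Tet3 as well. Group differences in density and flank ratio, tile fits of the spans, the scans of the spans and the order of the loci are given with and without them. Even counts were more frequent than odd ones: of the bins with a read in the 3 spans, 18.3% to 34.6% per library had an odd count. The part of this pattern in the results was not tested. The median bin of the 3 spans held 2 reads per library, so single bins carry little information and sums over longer stretches were used.

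The Tet2 span carried more 5hmC signal than the autosomal mean in every library, and no difference between Tet2 CKO and WT was found in it. WT replicates 1, 2 and 3 had 1113, 731 and 689 reads in the span. Tet2 CKO replicates 1, 2, 3 and 4 had 719, 550, 567 and 744. The WT relative densities were 1.15, 1.79 and 1.42 and those of Tet2 CKO were 1.71, 1.47, 1.40 and 1.59, so every Tet2 CKO library lay inside the range of the WT libraries. The means were 1.45 ± 0.320 (SD, n = 3) for WT and 1.54 ± 0.135 (SD, n = 4) for the Tet2 CKO group, a difference of 0.0894 with p = 0.657 (exact permutation test over the 35 ways to choose 3 of 7 libraries, two-sided, smallest possible p 0.0286). With Tet2 CKO replicates 2 and 3 left out the difference was 0.196 (exact p = 0.5). In whole tissue, a change in the mix of cells and a change of 5hmC per cell cannot be told apart, here or at the other loci.

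Between 66.6% and 94.9% of autosomal stretches of the same length had a lower relative density than the Tet2 span in the WT libraries. The corresponding shares in Tet2 CKO were 92.6%, 81.7%, 79.4% and 91.2%. Set against its own flanks, Tet2 had 1.20, 1.45 and 1.23 times the reads per bin in WT. In Tet2 CKO the ratio was 1.82, 0.979, 0.858 and 1.30. The span thus stood above its flanks in 5 of 7 libraries, and replicates 2 and 3 of Tet2 CKO were the exceptions. On the log2 scale the ratio was 0.36 ± 0.15 (SD, n = 3) for WT and 0.25 ± 0.48 (SD, n = 4) for the Tet2 CKO group, and the difference was smaller than the spread between libraries (two-sided exact permutation test, p = 0.8). Without Tet2 CKO replicates 2 and 3 it was 0.26 (exact p = 0.3).

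In a fit of all 80 kb tiles of the genome, to which the spans and flanks were added as rows, Tet2 had a log2 fold change of 0.017 (SE 0.27) for Tet2 CKO over WT, with adjusted p = 0.964 (edgeR's quasi-likelihood test, Benjamini-Hochberg). Its flanks had 0.17 (adjusted p = 0.657). Of all rows of that fit 0% passed an adjusted p of 0.05, while 11.4% were higher and 2.74% lower in Tet2 CKO at an unadjusted p under 0.05. Neither the Tet2 span nor its flanks reached that unadjusted level, nor did those of Tet1 and Tet3. Without Tet2 CKO replicates 2 and 3 the log2 fold change of the Tet2 span was 0.11 (edgeR, adjusted p = 0.999).

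**Figure D1:**
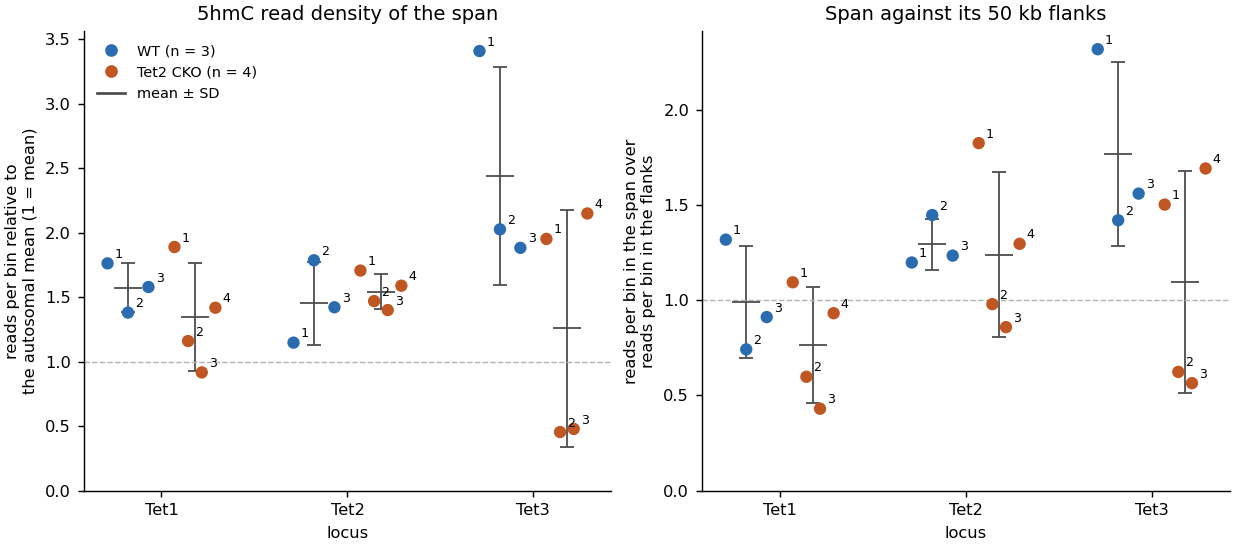
Each point is 1 library, blue for WT (n = 3) and orange for Tet2 CKO (n = 4), with bars for mean ± SD. The left panel plots relative density of each span, with 1 the autosomal mean, and the right panel the ratio of the span to its flanks. In the left panel the Tet2 points of the 2 groups lie together, while at Tet3 Tet2 CKO replicates 2 and 3, at 0.455 and 0.479, lie far below the other 5 libraries, which run from 1.88 to 3.41. In the right panel the ratios at Tet2 run from 1.20 to 1.45 in WT and from 0.858 to 1.82 in Tet2 CKO.

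Within the Tet2 span the signal was uneven, and its highest part lay toward the upper edge. Of the 8 windows of 10 kb that start in the span, chr3:133190001-133200000 had the highest mean density, 2.59 ± 1.20 (SD, n = 3) for WT and 2.62 ± 0.665 (SD, n = 4) for the Tet2 CKO group. Its WT values were 1.34, 3.73 and 2.69 and its Tet2 CKO values 2.40, 2.88, 3.38 and 1.83. The lowest window, chr3:133160001-133170000, had 0.685 ± 0.146 (SD, n = 3) and 0.821 ± 0.320 (SD, n = 4). The peak of the highest window came from adjoining bins. The bin chr3:133191501-133192000 held 24, 17 and 36 reads in WT and 27, 43, 46 and 12 in Tet2 CKO. The next bin, chr3:133192001-133192500, held 15, 20 and 27 reads and 12, 21, 36 and 12. Both bins had reads in all 7 libraries, and the groups overlapped in both.

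No 10 kb window of Tet2 passed the test, and their log2 fold changes had a median of 0.12 (without Tet2 CKO replicates 2 and 3, 0.14). The window with the smallest p among those higher in Tet2 CKO was chr3:133150001-133160000. Its relative density was 0.984, 1.62 and 1.61 in WT and 1.30, 2.77, 3.09 and 1.93 in Tet2 CKO, with a log2 fold change of 0.84 (SE 0.53) and adjusted p = 0.426 by edgeR. Tet2 CKO replicates 2 and 3 were the highest there, and without them the log2 fold change was 0.15. In it lies the bin chr3:133155001-133155500, the third highest of the span, with 6, 7 and 17 reads in WT and 6, 40, 27 and 15 in Tet2 CKO. Among windows with a lower value the smallest p was that of chr3:133140001-133150000, at a log2 fold change of -0.24 (SE 0.46) and adjusted p = 0.792. Over the genome 0% of 10 kb windows passed the adjusted threshold, 9.77% were higher and 3.71% lower at an unadjusted p under 0.05. Of the 8 Tet2 windows, 0 reached the unadjusted level.

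A stretch of DNA cut out in all cells would give no reads in any Tet2 CKO library. The Tet2 span was scanned for such a stretch with windows of 3 kb moved by 1 bin. A window met the rule if it had at least 3 reads in every WT library, a relative density lower in every Tet2 CKO library than in every WT library, and a mean Tet2 CKO density at most 0.5 of the WT mean. At the mean WT density, the median window of Tet2 would hold 20.1, 17.8, 19.3 and 22.3 reads in Tet2 CKO replicates 1, 2, 3 and 4. Of the 161 windows of Tet2, 156 had enough WT reads, and 1 of them, or 0.641%, met the rule. Over all autosomal windows 5.67% met it. The flanks of Tet2 had 5 of 165 such windows.

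The 1 window was chr3:133187001-133190000, 61 kb from the lower edge of the span. It held 85, 18 and 22 reads in WT and 18, 4, 2 and 12 in Tet2 CKO. At the mean WT density 24.9, 22.1, 23.9 and 27.6 reads would stand in the Tet2 CKO libraries. Its relative densities were 2.42, 1.22 and 1.26 in WT and 1.18, 0.296, 0.137 and 0.709 in Tet2 CKO, a ratio of means of 0.356, the lowest in the span. Every Tet2 CKO library kept reads in it, and replicate 1 lay just below WT replicate 2. The window met the rule in none of the scans of Tet2 with 5 kb or 10 kb windows, with a ratio of at most 0.25, with scaling by library totals, or without Tet2 CKO replicates 2 and 3, each of which gave 0 windows. Of autosomal windows 1.38% to 9.38% met the rule in those scans. Leaving out 1 library at a time gave 1 to 8 windows. The count was 8 (5.13%) without Tet2 CKO replicate 1, against 12.6% of autosomal windows. It was 3 (1.90%) without WT replicate 1 and 2 (1.27%) without WT replicate 2, against 8.83% and 9.11%.

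The reverse rule, with at least 3 reads in every Tet2 CKO library and a WT mean at most 0.5 of theirs, was met in the Tet2 span as often. It was met by 1 of 138 windows, chr3:133155001-133158000, with 27, 34 and 39 reads in WT and 42, 79, 106 and 50 in Tet2 CKO. Of all autosomal windows 5.18% met the reverse rule. Without Tet2 CKO replicates 2 and 3 it was met by 2 of 158 Tet2 windows and by 7.67% of autosomal windows. Across the Tet2 span the median ratio of Tet2 CKO to WT density was 0.986, and 8 of the 156 windows had a ratio of 0.5 or less.

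At the level of single bins, 75 bins of Tet2 had a read in every WT library. Of these, 1 bin, or 1.33%, had none in any Tet2 CKO library, against 3.84% over the autosomes. This bin, chr3:133176501-133177000, held 41, 4 and 2 reads in WT. The longest run of adjoining Tet2 bins without a Tet2 CKO read was 1.5 kb (chr3:133160501-133162000), and it held only 6, 4 and 5 WT reads. Bins with a read in every Tet2 CKO library and none in WT numbered 0 of 47 in Tet2 and made up 1.11% of such autosomal bins. A missing stretch shorter than a few bins, or one cut in too few cells to bring the mean down to 0.5 of WT, would not meet these rules at this depth.

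**Figure D2:**
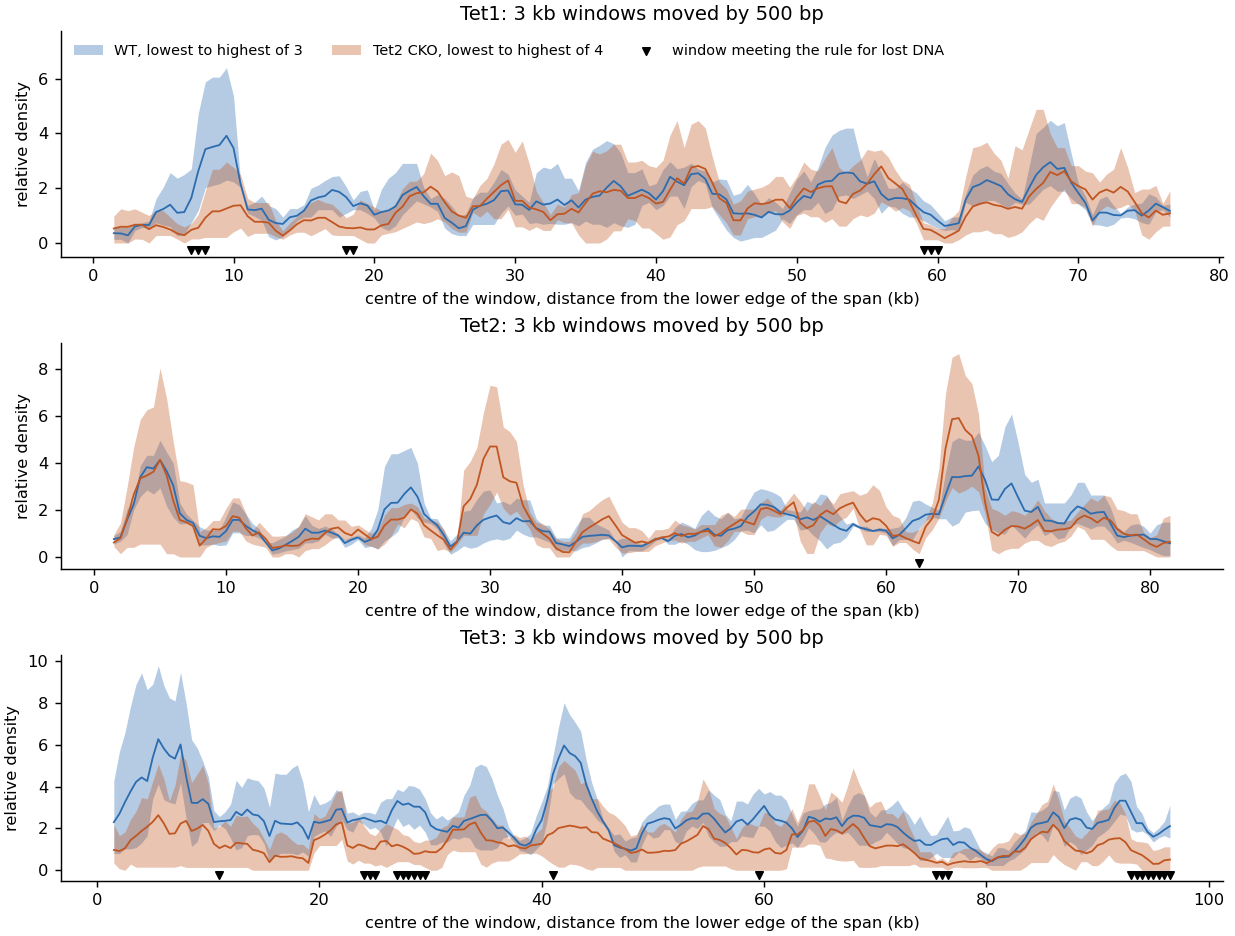
Relative density in 3 kb windows is drawn against the distance of the window centre from the lower edge of each span in kb, with bands from the lowest to the highest library of WT (blue) and of Tet2 CKO (orange), lines for the group means, and triangles under windows that met the rule for lost DNA. Tet2 has 1 triangle, Tet1 has 8 and Tet3 has 23, and in Tet2 the bands lie over each other along nearly the whole span.

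Tet3 had the highest 5hmC density of the 3 loci in WT and was the locus where the Tet2 CKO libraries differed most from each other. WT replicates 1, 2 and 3 had 3902, 979 and 1077 reads in the span, and Tet2 CKO replicates 1, 2, 3 and 4 had 971, 201, 229 and 1188. The relative densities were 3.41, 2.03 and 1.88 in WT and 1.95, 0.455, 0.479 and 2.15 in Tet2 CKO. Tet2 CKO replicates 1 and 4 lay within the WT range, whereas replicates 2 and 3 lay below the autosomal mean. The means were 2.44 ± 0.842 (SD, n = 3) for WT and 1.26 ± 0.918 (SD, n = 4) for the Tet2 CKO group. The difference of -1.18 was larger than either SD, but the groups overlapped (two-sided exact permutation test, p = 0.257). With Tet2 CKO replicates 2 and 3 left out the difference was -0.388 (exact p = 0.9, smallest possible 0.1).

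In WT at least 98.1% of autosomal stretches of the same length had a lower density than the Tet3 span, and in Tet2 CKO replicates 1 and 4 it was 97.1% and 99.3%. In Tet2 CKO replicates 2 and 3 it was 7.29% and 8.77%. The share of Tet3 bins with a read was likewise lowest in those 2 libraries, at 98.0%, 83.7% and 85.2% in WT and 83.7%, 30.6%, 35.2% and 79.1% in Tet2 CKO. As a ratio of group means, Tet2 CKO over WT on the log2 scale, Tet3 had -0.95, and 0.799% of autosomal stretches of its length had a lower ratio. With Tet2 CKO replicates 2 and 3 set against the other 5 libraries, both genotypes among them, the log2 ratio was -2.29. Of the stretches 0.121% had a lower value on that measure.

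The flanks of Tet3 followed the span in direction. Their relative density was 1.47, 1.43 and 1.21 in WT and 1.30, 0.730, 0.848 and 1.27 in Tet2 CKO. The ratio of span to flanks was 2.32, 1.42 and 1.56 in WT and 1.5, 0.623, 0.564 and 1.69 in Tet2 CKO. Tet3 thus exceeded its surroundings in 5 libraries and lay below them in Tet2 CKO replicates 2 and 3. On the log2 scale the groups had 0.79 ± 0.38 (SD, n = 3) and -0.041 ± 0.83 (SD, n = 4), with p = 0.257 (exact permutation test, two-sided). The difference of -0.83 became -0.11 without Tet2 CKO replicates 2 and 3 (exact p = 0.9).

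In the genome-wide fit of 80 kb tiles, Tet3 had a log2 fold change of -1.08 (SE 0.61) and adjusted p = 0.263 by edgeR. Without Tet2 CKO replicates 2 and 3 it was -0.39 (adjusted p = 0.999). With the replicate number as a block, in which Tet2 CKO replicate 4 has no partner and does not enter the estimate, Tet3 passed the test at a log2 fold change of -1.71 (SE 0.22) and adjusted p = 7.84e-05. Its flanks passed too, at -0.63 with adjusted p = 0.00705. In that blocked fit 34.3% of all tiles passed as higher and 33.6% as lower in Tet2 CKO, so passing was common. The blocked fit compares WT replicates 1 to 3 with the same-numbered Tet2 CKO replicates only. The relative density of Tet3 was lower in Tet2 CKO in all 3 of those pairs (two-sided exact permutation of signs, p = 0.25, the smallest that 3 pairs allow).

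Lower values in Tet2 CKO ran along the whole Tet3 span and were not confined to a part of it. All 9 windows of 10 kb had a log2 fold change below 0, with a median of -0.93. Without Tet2 CKO replicates 2 and 3, 8 of 9 lay below 0 and the median was -0.33. None of the 9 passed the adjusted threshold in the unblocked fit, and 1 of 9 reached an unadjusted p under 0.05. With the block, 6 of 9 passed as lower, while 9.57% of all windows passed as lower and 12.6% as higher.

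The window with the smallest p was chr6:83400001-83410000, at the upper edge of Tet3. Its relative density was 3.04, 2.07 and 1.71 in WT and 1.71, 0.222, 0.328 and 1.06 in Tet2 CKO, with a log2 fold change of -1.48 (SE 0.57) and adjusted p = 0.369 (edgeR; with the block, 0.00744). WT replicate 3 and Tet2 CKO replicate 1 met at the same rounded value, and without Tet2 CKO replicates 2 and 3 the log2 fold change was -0.83. The highest window, chr6:83350001-83360000, had 3.83, 2.74 and 2.50 in WT and 2.34, 0.421, 0.451 and 3.23 in Tet2 CKO. The lowest, chr6:83380001-83390000, had 2.56, 1.42 and 1.34 in WT and 1.06, 0.155, 0.307 and 1.91 in Tet2 CKO. In both windows Tet2 CKO replicate 4 lay above WT replicate 2. Tet2 CKO replicates 2 and 3 were the lowest libraries in each of the 3 windows.

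Of the 196 bins of Tet3, 30 had a mean of at least 10 reads and could be tested singly. A bin that passes this filter through the group where it is high had to differ, so their direction is given only as a description. All 30 had a log2 fold change below 0 (20 of 30 without Tet2 CKO replicates 2 and 3), none passed the adjusted threshold and 3 reached an unadjusted p under 0.05. Over the genome 0% of tested bins passed, with 2.18% higher and 4.69% lower at that unadjusted level. The bin chr6:83318001-83318500 held 84, 22 and 35 reads in WT and 3, 0, 4 and 21 in Tet2 CKO. The bin chr6:83354001-83354500 held 58, 27 and 12 reads in WT and 7, 0, 2 and 6 in Tet2 CKO. In the first of these Tet2 CKO replicate 4 was near WT replicate 2, and in the second all Tet2 CKO counts lay below all WT counts. The third, chr6:83339501-83340000, held 45, 12 and 11 reads and 6, 0, 2 and 2. The bin with the highest mean relative density, chr6:83332501-83333000, did not share the pattern, with 53, 16 and 14 reads in WT and 18, 14, 10 and 29 in Tet2 CKO. The bin chr6:83318501-83319000, next to the first, held 63, 14 and 30 reads in WT and 11, 2, 0 and 18 in Tet2 CKO.

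The scan for lost DNA, run in the same way, was met by 23 of 191 windows of Tet3 (12.0%) in 7 runs and by 10 of 171 windows of its flanks, against 5.67% over the autosomes. Without Tet2 CKO replicates 2 and 3 it was met by 14 of 191 (7.33%), against 6.56% over the autosomes. The count depended on single libraries. With WT replicate 2 or 3 left out it was 40 or 53, with 9.11% or 9.86% of autosomal windows meeting the rule. With Tet2 CKO replicate 1 or 4 left out it was 51 or 54, with 12.6% of autosomal windows in each case. Leaving out any of the other 3 gave 19 to 23, with 5.99% to 8.83% of autosomal windows. The longest run, chr6:83403501-83410000, held 258, 56 and 71 reads in WT and 37, 7, 5 and 44 in Tet2 CKO. In that run reads remained in every library. The run chr6:83370001-83373000 held 80, 58 and 37 reads in WT and 32, 0, 4 and 17 in Tet2 CKO, so replicate 2 had none there. The reverse rule was met by 0 of 86 Tet3 windows, against 5.18% over the autosomes. Without Tet2 CKO replicates 2 and 3 it was met by 3 of 187, against 7.67%. Of the 146 Tet3 bins with a read in every WT library, 2 (1.37%) had none in any Tet2 CKO library, against 3.84% over the autosomes.

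**Figure D3:**
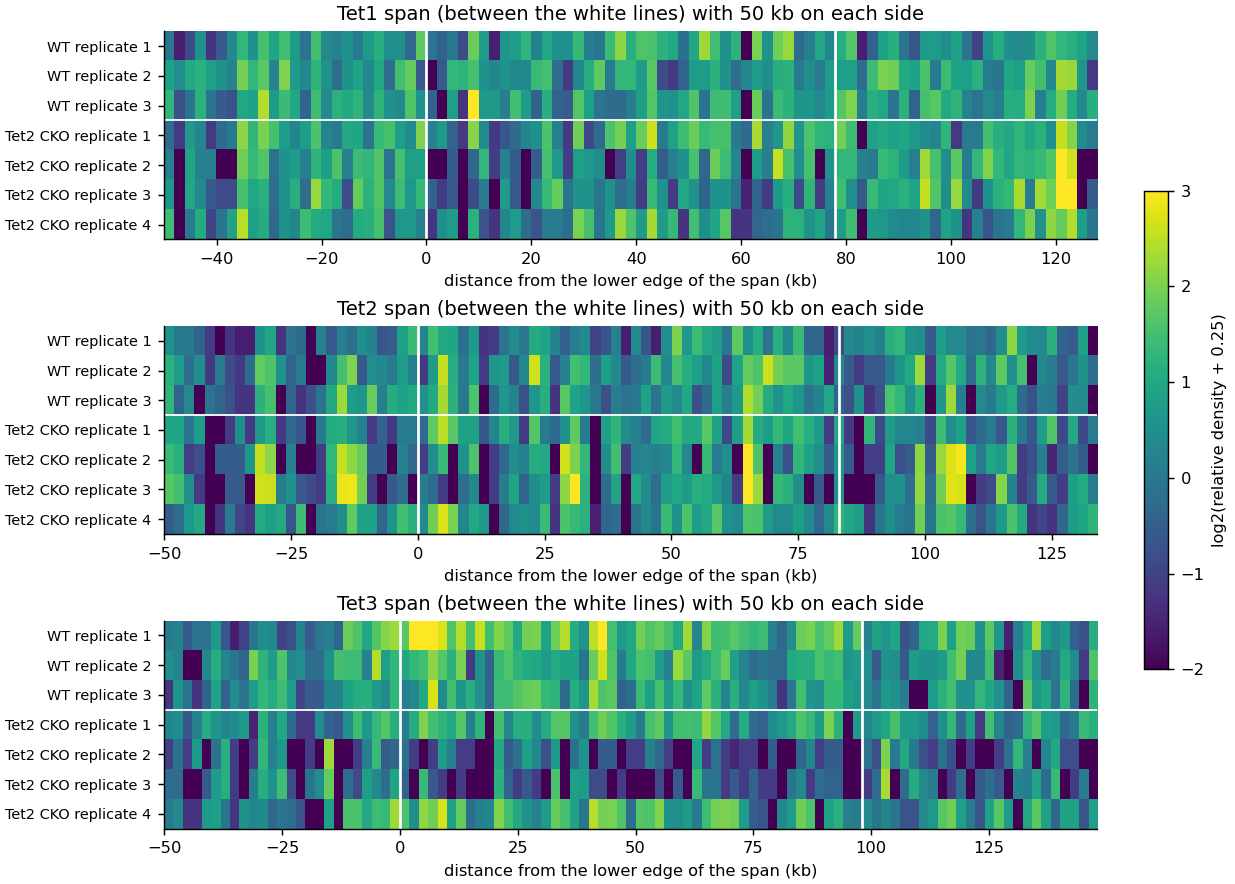
Rows are the 7 libraries and columns are steps along each span, drawn between white lines, with its flanks, by distance from the lower edge of the span in kb; colour is log2(relative density + 0.25). At Tet3 the rows of Tet2 CKO replicates 2 and 3 are dark across the span, and at Tet2 no column is bright in all WT rows and dark in all Tet2 CKO rows.

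Tet1 lay between the other loci in how far the Tet2 CKO libraries spread. WT replicates 1, 2 and 3 had 1606, 531 and 719 reads in the span, and Tet2 CKO replicates 1, 2, 3 and 4 had 748, 408, 349 and 624. The relative densities were 1.76, 1.38 and 1.58 in WT and 1.89, 1.16, 0.917 and 1.42 in Tet2 CKO. The lowest libraries were again Tet2 CKO replicates 2 and 3, and the highest was Tet2 CKO replicate 1. The means were 1.57 ± 0.191 (SD, n = 3) and 1.35 ± 0.416 (SD, n = 4), a difference of -0.228 (two-sided exact permutation test, p = 0.429) that became 0.0797 without Tet2 CKO replicates 2 and 3 (exact p = 0.7). In the tile fit the log2 fold change was -0.33 (SE 0.33) with adjusted p = 0.445 by edgeR, and -0.036 without those 2 libraries.

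Unlike Tet3, Tet1 did not stand above its flanks, which were themselves dense. The flanks had relative densities of 1.34, 1.86 and 1.73 in WT and 1.73, 1.94, 2.13 and 1.52 in Tet2 CKO. The ratio of span to flanks was 1.32, 0.742 and 0.911 in WT and 1.09, 0.598, 0.430 and 0.931 in Tet2 CKO, above 1 in 2 of 7 libraries. On the log2 scale it was -0.056 ± 0.42 (SD, n = 3) and -0.48 ± 0.61 (SD, n = 4), with p = 0.371 (exact permutation test, two-sided). The difference of -0.43 became 0.069 without Tet2 CKO replicates 2 and 3 (exact p = 0.8).

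The 10 kb windows of Tet1 with fold changes furthest below 0 were the first 2, near the lower edge. The window chr10:62270001-62280000 had relative densities of 1.25, 1.89 and 2.47 in WT and 1.32, 0.643, 0.307 and 0.869 in Tet2 CKO. Its log2 fold change was -1.19 (SE 0.47) with adjusted p = 0.369 by edgeR, and -0.82 without Tet2 CKO replicates 2 and 3. With the block its adjusted p was 0.0393 and its log2 fold change -1.28. It was the 1 Tet1 window of 8 to pass there, while 9.57% of all windows passed as lower. Without the block it was the 1 of 8 to reach an unadjusted p under 0.05, against 3.71% of all windows as lower.

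The next window, chr10:62280001-62290000, had the lowest density of Tet1. Its values were 1.24, 1.42 and 1.37 in WT and 0.867, 0.643, 0.799 and 0.727 in Tet2 CKO. It was the only 10 kb window of the 25 in the 3 spans in which the groups did not overlap, and here Tet2 CKO replicates 1 and 4 lay with replicates 2 and 3. Over the genome 5.11% of windows had all Tet2 CKO libraries below all WT libraries and 4.33% had them all above. Its log2 fold change was -0.75 (SE 0.41) with adjusted p = 0.383 by edgeR. It was -0.83 without Tet2 CKO replicates 2 and 3.

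The other Tet1 windows had smaller fold changes. The window chr10:62290001-62300000, which had the smallest p among those higher in Tet2 CKO, had a log2 fold change of 0.17 (adjusted p = 0.855). The highest window, chr10:62330001-62340000, had 2.05 ± 0.50 (SD, n = 3) for WT and 1.97 ± 0.846 (SD, n = 4) for the Tet2 CKO group. The window chr10:62300001-62310000 separated libraries across the groups, with 2.61, 1.99 and 0.993 in WT and 2.92, 0.554, 0.902 and 2.85 in Tet2 CKO. The median log2 fold change of the 8 windows was -0.046 (without Tet2 CKO replicates 2 and 3, -0.028).

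Of the 156 bins of Tet1, 11 could be tested, and none passed or reached an unadjusted p under 0.05. The bin chr10:62275501-62276000 in the first of the windows above held 20, 5 and 61 reads in WT and 8, 0, 1 and 10 in Tet2 CKO, so WT replicate 3 alone gave most of its reads. The bin of highest density, chr10:62336001-62336500, held 32, 8 and 14 reads and 17, 10, 14 and 10. The bin chr10:62310501-62311000 held 28, 4 and 18 reads and 20, 6, 10 and 8. In these bins the groups overlapped. Of the 166 Tet2 bins, 15 could be tested, with 0 passing and 0 at an unadjusted p under 0.05 by edgeR. DESeq2 also called 0 bins in each of the 3 loci, while over the genome it called 0.0157% of bins higher and 0.531% lower. At an unadjusted p under 0.05 it had 1 bin higher and 2 lower in Tet2, 3 lower in Tet3 and 0 in Tet1, against 3.42% higher and 9.51% lower over all bins. The scan for lost DNA was met by 8 of 146 windows of Tet1 (5.48%) in 3 runs and by 0 of 190 windows of its flanks, against 5.67% over the autosomes. It was met by 15 windows (10.3%) without Tet2 CKO replicates 2 and 3, against 6.56%. Leaving out 1 library gave 8 to 26 windows. The count was 26 (17.8%) without Tet2 CKO replicate 1, against 12.6% of autosomal windows. It was 16 (10.96%) without Tet2 CKO replicate 2 and 15 (10%) without WT replicate 2, against 5.99% and 9.11%. Leaving out any other library gave 8 to 12 windows, and in each case the Tet1 share was below the autosomal share. The run chr10:62272501-62276500 held 76, 57 and 107 reads in WT and 33, 3, 7 and 31 in Tet2 CKO. The run chr10:62283501-62287000 held 68, 18 and 36 reads and 16, 4, 4 and 13. The third run, chr10:62324501-62328500, lay 57.5 kb from the lower edge and held 54, 18 and 18 reads in WT and 11, 10, 7 and 2 in Tet2 CKO. Runs that met the rule thus occurred in the upper part of Tet1 as well as near its lower edge. The reverse rule was met by 1 of 125 windows, against 5.18% over the autosomes. Without Tet2 CKO replicates 2 and 3 it was met by 5 of 145, against 7.67%. Of the 79 Tet1 bins with a read in every WT library, 2 (2.53%) had none in any Tet2 CKO library, against 3.84% over the autosomes. Of the 44 with a read in every Tet2 CKO library, 1 had none in WT, against 1.11%.

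**Figure D4:**
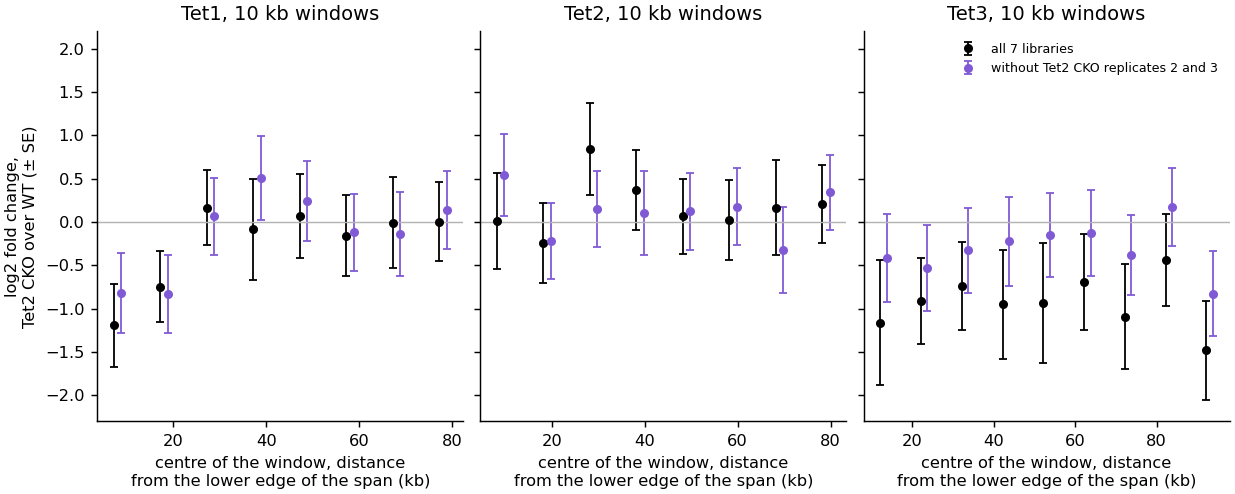
The log2 fold change of Tet2 CKO over WT (± SE, edgeR) is plotted for each 10 kb window against the distance of its centre from the lower edge of the span in kb, with all 7 libraries and without Tet2 CKO replicates 2 and 3. All 9 Tet3 windows lie below 0 with all libraries (median -0.93), the Tet2 windows lie about 0 (median 0.12), and the Tet1 values furthest below 0 are its first windows (-1.19 and -0.75).

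The order of the 3 loci depended on the libraries used. Over 7 libraries the relative density of Tet3 exceeded that of Tet1 by 0.321 ± 0.788 (SD) and was higher in 5 of 7 libraries (two-sided exact permutation of signs, p = 0.344). It exceeded Tet2 by 0.261 ± 1.09 (exact p = 0.594). Tet1 and Tet2 differed by -0.0593 ± 0.395 (exact p = 0.703), with Tet1 higher in 3 of 7. None of these differences exceeded its spread, and Tet2 CKO replicates 2 and 3 were the libraries in which Tet3 was the lowest of the 3 loci. Without them Tet3 was higher than Tet1 by 0.678 and than Tet2 by 0.753, each in 5 of 5 libraries. That count was fixed by leaving out the libraries in which Tet3 was lowest, so no p-value is given for it. Relative to the flanks, Tet3 was higher than Tet1 in 7 of 7 libraries, by 0.522 ± 0.350 (exact p = 0.0156, the smallest possible), also in Tet2 CKO replicates 2 and 3. Tet1 was lower than Tet2 on that scale in 6 of 7, by 0.401 ± 0.283 (exact p = 0.0312). Without Tet2 CKO replicates 2 and 3, Tet3 minus Tet1 relative to the flanks was 0.698, in 5 of 5 libraries (exact p = 0.0625, the smallest that 5 libraries allow). Tet1 minus Tet2 was then -0.400, with Tet1 lower in 4 of 5 (exact p = 0.125). These p-values are not adjusted over the pairs.

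The upper edge of each span, toward which the gene starts lie by strand, carried less signal than the rest of the span in nearly all libraries. In the upper 5 kb of Tet2 the mean relative density over the 7 libraries was 0.744, against 1.55 in the remainder, and it was lower in 7 of 7 libraries. In Tet3 the values were 1.11 and 1.80, lower in 7 of 7. In Tet1 they were 1.13 and 1.47, lower in 6 of 7, with Tet2 CKO replicate 1 as the exception at 2.01 against 1.88. In Tet2 the upper 5 kb held 14, 19 and 37 reads in WT and 22, 14, 4 and 36 in Tet2 CKO. In Tet3 it held 146, 39 and 46 in WT and 22, 0, 4 and 31 in Tet2 CKO. At Tet3 the upper 5 kb was below the rest of the span but above the autosomal mean in WT, at 2.50, 1.58 and 1.58, and Tet2 CKO replicate 2 had 0 reads there. The lower edges differed between the loci, with a mean relative density over the lowest 5 kb of 2.31 at Tet2, 2.24 at Tet3 and 0.560 at Tet1. The lower edge of Tet1 was below its upper edge in 7 of 7 libraries, so low signal was not particular to the upper edge there. The 5 kb was chosen after the data were seen, so no test is given, and gene starts were not placed on these bins.

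The shape of the signal along a span was compared between libraries in steps of 5 kb. At Tet3, over 20 steps, Pearson's r between pairs of the other 5 libraries ran from 0.407 to 0.841, and it was 0.605 between Tet2 CKO replicates 2 and 3. Between those 2 and the other 5 it ran from 0.00967 to 0.521. The median r was 0.583 among the other 5 and 0.288 across. At Tet2, over 17 steps, r was 0.774 between Tet2 CKO replicates 2 and 3, 0.246 to 0.815 among the other 5 and 0.0692 to 0.656 across. There the medians were close, 0.415 among the other 5 and 0.423 across. At Tet1, over 16 steps, the corresponding values were 0.691, 0.152 to 0.644 and 0.0163 to 0.421, with medians of 0.375 among the other 5 and 0.2 across. Steps of one span share a library, its depth and base composition, so these values describe the libraries and are not tests.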

How the data were processed

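5hmC was measured by antibody capture and sequencing in 3 WT and 4 Tet2 CKO hippocampus libraries. The table the authors deposited holds raw counts of reads per 500 bp bin of mm9, with no scaling. Bowtie2, HOMER and DESeq2 are named, without versions or roles, per the submitters' processing notes. How duplicate and multiply mapping reads were handled is not stated there, and input libraries were not analysed here.

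Counts were summed over spans, flanks, 10 kb windows and 80 kb tiles. Rows with a mean of at least 10 reads over the 7 libraries were tested genome-wide in R 4.3.3 with edgeR 4.0.16 (TMM, quasi-likelihood, two-sided, Benjamini-Hochberg over all rows, adjusted p under 0.05). Library sizes were sums over the tested rows, and SEs came from the F statistic. DESeq2 1.42.0 was an alternative. Values per locus were compared by exact permutation tests in Python 3.11.15 with scipy 1.17.1. These were 9 tests (span, flanks and their ratio at 3 loci), and their p-values are unadjusted. Without Tet2 CKO replicates 2 and 3 their smallest possible p is 0.1. The fits were tested on simulated data.

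Windows were named for the highest and lowest density and the smallest p in each direction, and bins for the 3 highest densities. Other named bins and windows, the bound of 100 reads and the omission of Tet2 CKO replicates 2 and 3 were chosen after their values were seen. The loci and lists were chosen with earlier results of these data known.

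Replicate numbers 1 to 3 occur in both groups. Deviations from the group means over 226973 windows correlated at 0.574, 0.360 and 0.410 in the same-numbered pairs, above the criterion of 0.1, so the block is reported where it alters a call. WT replicate 1 correlated as highly (0.532) with Tet2 CKO replicate 4, and WT replicate 3 (0.418) with Tet2 CKO replicate 2. No correlation between loci over libraries is given, since Tet2 CKO replicates 2 and 3 lie apart. Alternatives were other scalings, filters, flanks, window sizes and bounds, the block, and each library left out.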

Additional observations from a re-analysis of the deposited data

How the results depend on the processing

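Directions for Tet3 held in every alternative run for its density, flank ratio and tile fit, but their size did not. With single libraries left out its density difference ran from -1.48 to -0.695 and its tile value from -1.46 to -0.63. The smallest size of each came without WT replicate 1. Its log2 flank ratio ran from -1.09 to -0.57. Without Tet2 CKO replicates 2 and 3 these were -0.388, -0.39 and -0.11. No alternative without the block gave a call in any locus at the tile, window or bin level. The Tet1 density difference became 0.0797 and its log2 flank ratio 0.069 without Tet2 CKO replicates 2 and 3. For Tet2 the density difference ran from -0.0626 to 0.256 as single libraries were left out and was -5.77 CPM (for the whole span) with scaling by the library total. Its log2 flank ratio ran from -0.32 to 0.038 with single libraries left out and was 0.26 without Tet2 CKO replicates 2 and 3. The tile value of Tet2 ran from -0.051 to 0.14 with single libraries left out and was -0.37 with library size only, a scaling that moved the median of all tiles from 0.017 to -0.41. With the replicate block Tet3 was called at -1.71, and 7 of 25 windows were called: the Tet1 window at 62270001 and 6 Tet3 windows. The cause of these shifts was not tested.

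For the order of the loci, Tet3 minus Tet1 was 0.522 relative to the flanks, Tet3 minus Tet2 was -0.065 on the log2 scale, and Tet1 minus Tet2 was -0.401 relative to the flanks, 0.122 in WT only and 0.0756 without Tet2 CKO replicates 2 and 3. Of Tet2 windows meeting the rule for lost DNA there were 2 at 1 kb, 0 at 5 kb, at 10 kb, at a ratio of 0.25, with scaling by library totals and without Tet2 CKO replicates 2 and 3, and 1 to 8 with single libraries left out. Among named windows, the one at 62290001 was -0.44 and those at 133160001 and 133190001 were -0.26 and -0.49 with library size only. The window at 133190001 was -0.32 without Tet2 CKO replicates 2 and 3. The window at 62330001 was 0.13 with the block. With single libraries left out, those at 62330001, 133140001 and 133190001 ran from -0.28 to 0.28, from -0.46 to 0.19 and from -0.11 to 0.50. None of these windows was called. With a median of 2 reads per bin, depth limits statements to stretches of several kb.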
